A study of Mus musculus with 4 samples.

Results

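The 9 genes described here take up, carry, digest or export lipid, and they were followed through single-cell RNA sequencing of mouse subcutaneous adipose tissue (SAT) and of tumor grafts. The listed genes were Gpihbp1, Lpl, Cd36, Fabp4, Fabp5, Apoe, Lipa, Abca1 and Abcg1, that is 9 of the 31053 genes in the deposited matrices, and all 9 had UMIs in each of the 4 libraries. They were chosen by name, with earlier results of these data known. The main comparison was how their levels in capillary endothelial cells compare with those in macrophages and stromal cells, library by library. Comparisons between tissues and between treatments are given as well. The animals were FVB mice (the labels write VFB) fed chow, whose age the labels do not give, and every one carried a subcutaneous graft of MycCaP, 1 cell line derived from a Myc-driven mouse prostate cancer. The control group received PBS, and the other group received D-CAN, a compound made from a peptide that homes to adipose stromal cells (ASC) and meant to remove them. Each tissue of each group gave 1 library, so the libraries are SAT control, SAT D-CAN, tumor control and tumor D-CAN. Whether a library pools animals is not given in the sources used here. The SAT libraries hold the stromal and vascular fraction of the fat pad, from which adipocytes are lost. By number it was mostly lymphocyte-like cells, 54.9% of the clustered cells in SAT control and 77.0% in SAT D-CAN. The tumor libraries hold cancer cells with the stroma and vessels of the graft.

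Lipoprotein lipase, the product of Lpl, is made by adipocytes and other parenchymal or stromal cells and cuts triglyceride out of lipoproteins in the capillary lumen. It reaches that place on GPIHBP1, a small anchored protein of capillary endothelium that binds the enzyme and moves it across the cell. The fatty acids set free are taken up with the help of CD36, a membrane receptor, and are carried inside the cell by FABP4 and FABP5. APOE is the apolipoprotein that macrophages and other cells put on lipoprotein particles, and LIPA is the lysosomal acid lipase that digests the lipids of engulfed particles. ABCA1 and ABCG1 are transporters that export cholesterol to apolipoproteins and to HDL.

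The libraries held 2851 (SAT control), 1922 (SAT D-CAN), 2830 (tumor control) and 1525 (tumor D-CAN) cells, with 6667064 to 17996284 UMIs each and a median of 1700 to 4855 UMIs per cell. Of the 9128 cells, 8986 had 200 genes or more and were clustered within each tissue, with the 9 genes and the other lists used here kept out of the clustering. Any 2 libraries shared at most 2 cell barcodes, 7 over all pairs. In SAT, 2 clusters were capillary endothelial-like, with 380 control and 121 D-CAN cells, and each detected 8 of 8 capillary markers. One of these clusters was shallow, with a median of 821.5 UMIs against 3103 in the other, and it made up 262 of the 380 control cells and 28 of the 121 D-CAN cells. Its 10 leading genes held the hemoglobin genes Hba-a1 and Hbb-bs of red blood cells and none of its own markers, so its name is less sure, and results are also given for the deep cluster alone (cluster 9) where they differ. Hemoglobin genes made up 0.343% of the UMIs of the shallow cluster and 0.278% of those of the deep one. In the tumors, 1 endothelial cluster was found, with 101 control and 67 D-CAN cells. It detected 9 of 9 endothelial markers, 6 of 8 capillary markers and 5 arterial markers, where the SAT clusters detected 8 capillary and 4 or 5 arterial markers, so it is called tumor endothelial-like here. The macrophage-like classes held 147 and 71 cells in SAT and 485 and 298 in the tumors (control, then D-CAN), and the fibroblast-like classes 116, 64, 84 and 66. The SAT macrophage-like cluster was mixed. Only 33.3% of its control and 25.4% of its D-CAN cells had a UMI of C1qa, C1qb or C1qc, genes of tissue macrophages, against 92.8% and 88.6% in the tumors. Perivascular-like cells (170, 46, 109 and 51) were kept apart from fibroblast-like cells as a further stromal class. Levels are UMIs per 1000000 UMIs (CPM) of the summed cells of a class, with exact 95% Poisson intervals that cover counting error only. Since each group is 1 library, no test between groups is possible. A gene is called higher or lower where its level differs at least 2-fold, the interval of the ratio leaves out no change, and both sides together hold 20 UMIs or more.

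By GENCODE vM21 on GRCm38, Fabp5 (chr3:10012548-10016607, plus strand) and Fabp4 (chr3:10204088-10208576, minus strand) lie 187480 bases apart on chromosome 3. Gpihbp1 lies at chr15:75596628-75599481 (plus), Lpl at chr8:68880491-68907448 (plus), Cd36 at chr5:17781690-17888801 (minus) and Apoe at chr7:19696109-19699188 (minus). Lipa lies at chr19:34492318-34527474 (minus), Abca1 at chr4:53030787-53159895 (minus) and Abcg1 at chr17:31057675-31117988 (plus). All 9 are protein coding, and the 3′ libraries count the ends of their transcripts, so levels are compared for a gene between cells and not between genes. Fabp5 has a processed copy elsewhere in the genome, with which reads could be shared, so its levels are uncertain to that extent. RefSeq promoter windows (GRCm38.p6, 250 bases before to 50 after the start) were found for 4 of the 9 genes, Cd36, Apoe, Lipa and Abca1. Those of Cd36, highest in capillary cells below, and of Lipa and Abca1, highest in macrophage-like cells of tumors, are printed 5′ to 3′ on the gene's strand, from chr5:17835847-17836146, chr19:34527425-34527724 and chr4:53159846-53160145. The windows of Lipa and Abca1 span the 5′ ends of the genes as given above. That of Cd36 lies at a start inside the gene, away from its 5′ end at 17888801, so it does not describe that end. Capitals mark motif letters on either strand, none of them overlapping: the GC box GGGCGG, the CCAAT box, the TATA box written as TATAAA, the E box with the letters CACGTG, and the nuclear receptor core repeat AGGTCA.
Cd36: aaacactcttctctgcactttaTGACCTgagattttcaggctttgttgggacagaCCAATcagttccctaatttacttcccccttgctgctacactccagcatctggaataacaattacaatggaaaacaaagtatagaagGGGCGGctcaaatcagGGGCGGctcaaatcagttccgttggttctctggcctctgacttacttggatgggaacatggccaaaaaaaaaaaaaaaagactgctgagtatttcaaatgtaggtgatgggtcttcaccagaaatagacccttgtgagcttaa
Lipa: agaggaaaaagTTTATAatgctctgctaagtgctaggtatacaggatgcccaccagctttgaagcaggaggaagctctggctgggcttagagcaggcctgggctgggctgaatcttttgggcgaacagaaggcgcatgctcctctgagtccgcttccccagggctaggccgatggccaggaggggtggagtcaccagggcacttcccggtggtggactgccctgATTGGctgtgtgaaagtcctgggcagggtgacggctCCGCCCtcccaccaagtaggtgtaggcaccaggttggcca
Abca1: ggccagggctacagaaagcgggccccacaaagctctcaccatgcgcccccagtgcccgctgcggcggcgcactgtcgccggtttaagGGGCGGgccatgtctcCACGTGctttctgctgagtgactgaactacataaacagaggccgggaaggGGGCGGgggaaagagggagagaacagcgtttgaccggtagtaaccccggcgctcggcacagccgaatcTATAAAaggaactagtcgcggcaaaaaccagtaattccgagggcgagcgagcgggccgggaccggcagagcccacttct
Of these 3 windows, only that of Cd36 held AGGTCA, once, a word found in 16.3% of 32851 windows of the same length. All 3 held GGGCGG, found in 35.7% of windows. CCAAT stood in those of Cd36 and Lipa (37.4% of windows), TATAAA in those of Lipa and Abca1 (13.6%) and CACGTG in that of Abca1 (7.15%). AGGTCA repeated in the same direction with a gap of 1 or 4 bases is the consensus for PPAR and LXR receptor pairs. Exact copies of it were in none of the 6 windows of the 4 genes and in 0.0396% and 0.0152% of all windows. Copies with changed letters were not searched for, so these counts do not show that a window lacks a receptor site.

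Gpihbp1 was found almost only in endothelial cells, in SAT and in tumors. Its level in SAT capillary endothelial-like cells was 2211 CPM (2104 to 2322) in control and 2532 CPM (2403 to 2667) in D-CAN. In tumor endothelial-like cells it was 1432 CPM (1294 to 1579) in control and 1499 CPM (1361 to 1646) in D-CAN. All 4 of these libraries lay far above the macrophage-like cells, where it was 21.6 and 15.9 CPM in SAT, and 1 UMI was counted in each tumor library. Fibroblast-like cells had 0 UMIs in 3 libraries and 1 UMI in tumor control. The level in capillary cells was thus at least 263-fold (SAT control), 325-fold (SAT D-CAN) and 301-fold (tumor D-CAN) that in fibroblast-like cells, taking 3 UMIs per library as the floor. After thinning to 1000 UMIs per cell, 75.1% (68.5 to 81.0) of SAT control and 79.2% (70.3 to 86.5) of SAT D-CAN capillary cells had a Gpihbp1 UMI. Before thinning the shares were 70.0% and 87.6%. In lymphocyte-like cells, which should lack the gene and stand for free RNA in SAT, the thinned share was 0.394% in control and 0.0765% in D-CAN, at a median depth of 2112 and 2851.5 UMIs against 1032.5 and 3218 in the capillary cells. In the tumors, the thinned shares were 67.9% (56.6 to 77.8) and 55.8% (41.3 to 69.5), and they were 73.3% and 73.1% without thinning. Cancer-like cells of the tumors had 0.428 and 1.17 CPM of Gpihbp1.

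Cd36, the fatty acid receptor, followed the same order but was less sharply bound to endothelium. SAT capillary endothelial-like cells had 4128 CPM (3981 to 4278) in control and 4838 CPM (4659 to 5022) in D-CAN. Tumor endothelial-like cells had 511 CPM (430 to 602) in control and 962 CPM (853 to 1082) in D-CAN, so both tumor libraries lay below both SAT libraries. Macrophage-like cells had 251 and 193 CPM in SAT and 116 and 260 CPM in the tumors. In SAT, 5 of these cells held 63.4% and 62.4% of the UMIs, and without them the level was 104 and 88.4 CPM. Perivascular-like cells of SAT had more, 760 and 584 CPM, or 652 and 218 CPM without their 5 richest cells. The part of endothelial RNA in those values was not tested. In the tumors perivascular-like cells had 5.55 and 58.9 CPM. Fibroblast-like cells had 22.4, 13.0, 2.38 and 8.31 CPM, from 8, 5, 1 and 5 UMIs. Lymphocyte-like cells had 6.62 and 6.08 CPM, so Cd36 in SAT macrophage-like cells stood above the level in cells that stand for free RNA, and so did its thinned share (14.6% and 13.3%, against 0.868% and 0.535%).

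Fabp4, the carrier best known from adipocytes, was likewise highest in endothelial cells. Its level in SAT capillary endothelial-like cells was 39356 CPM in control and 47171 CPM in D-CAN, and all 380 and 121 cells had a UMI of it. Tumor endothelial-like cells had 10830 and 13938 CPM, again below SAT in both libraries. Macrophage-like cells had 749 and 554 CPM in SAT and 59.4 and 26.0 CPM in the tumors. In SAT, 5 of these cells held 85.6% of the UMIs in control and 92.2% in D-CAN, and without them the level was 120 and 50.3 CPM. Fibroblast-like cells had 132, 169, 66.6 and 130 CPM. Lymphocyte-like cells had 69.2 and 42.8 CPM. In the tumors, cancer-like cells had 142 and 99.9 CPM and unnamed cluster 2, led by Ptgds and Lcn11, 5.99 and 15.5 CPM, so the level in cells outside the vessels differed between clusters. The part of free RNA in the fibroblast and macrophage values was not tested. SAT perivascular-like cells had 11407 and 9092 CPM of Fabp4, with 279 and 90.7 CPM of Gpihbp1. Endothelial markers stood beside them in these cells, with 9 of 9 detected and a summed level of 43.7% (control) and 23.3% (D-CAN) of that in capillary cells; the part of endothelial RNA in the perivascular values was not tested. Per 100 UMIs of Fabp4, the SAT perivascular-like cells held 2.45 and 0.997 UMIs of Gpihbp1 against 5.62 and 5.37 in capillary cells.

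**Figure D1:**
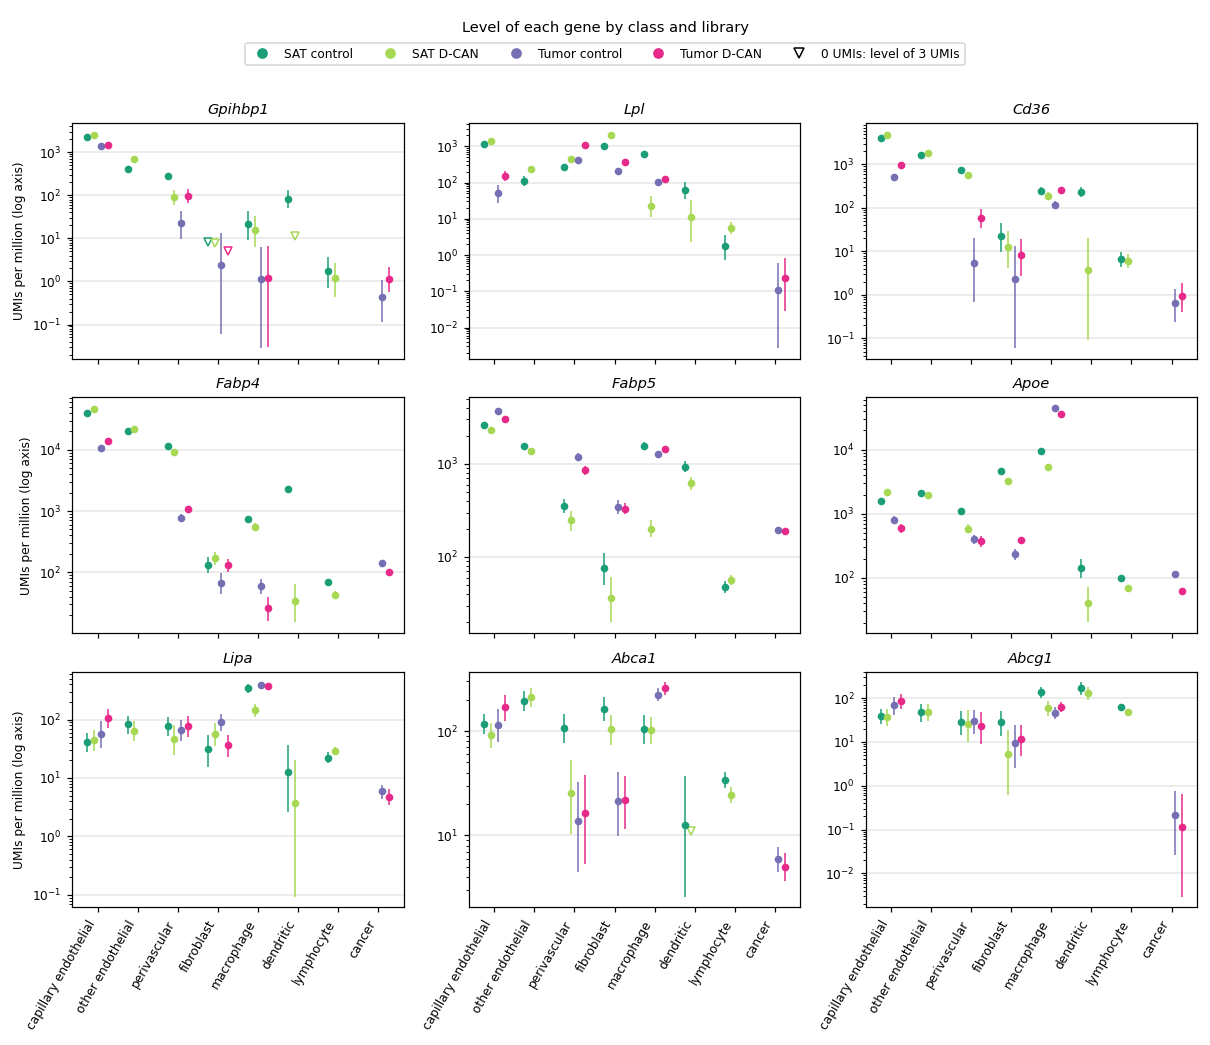
Level of each of the 9 genes in UMIs per 1000000 on a log axis, for each class of cells (x axis) and library (colour), with exact 95% Poisson intervals; open triangles mark 0 UMIs at the level of 3 UMIs, and in the tumors "capillary endothelial" is the 1 endothelial cluster. Gpihbp1, Cd36 and Fabp4 are highest in the endothelial cells of all 4 libraries, Apoe and Lipa in macrophage-like cells, and Lpl in different classes in SAT and tumors.

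Lpl, the lipase itself, came from different cells in the 2 tissues. In SAT, capillary endothelial-like cells had 1148 CPM (1072 to 1229) in control and 1401 CPM (1305 to 1502) in D-CAN. Fibroblast-like cells had 1041 CPM (938 to 1152) and 2039 CPM (1899 to 2187), so the intervals of both classes overlap in control and not in D-CAN. Perivascular-like cells of SAT had 266 and 435 CPM, below both. In the tumors the order was turned. Of the classes, perivascular-like cells led with 430 CPM (365 to 504) in control and 1061 CPM (948 to 1183) in D-CAN, followed by fibroblast-like cells with 204 and 377 CPM. Within the fibroblast-like cells, the small cluster 14 had more, 603 CPM (452 to 789) and 1430 CPM (1178 to 1719). The tumor perivascular-like cells also held fibroblast markers, at 10809 and 12082 CPM. Tumor endothelial-like cells had 50.4 CPM (27.5 to 84.5) and 155 CPM (113 to 207), from 14 and 45 UMIs. Lymphocyte-like cells had 1.78 and 5.67 CPM and cancer-like cells 0.107 and 0.234 CPM, below all the classes named before.

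Many capillary cells of SAT held UMIs of both the lipase and its carrier. At 1000 UMIs per cell, Gpihbp1 and Lpl were found together in 83 of 197 control (42.1%, 35.1 to 49.4) and 61 of 106 D-CAN cells (57.5%, 47.6 to 67.1). In the tumors they were found together in 3 of 81 control (3.70%, 0.770 to 10.4) and 5 of 52 D-CAN endothelial-like cells (9.62%, 3.20 to 21.0). These intervals are exact binomial ones over cells, and cells of 1 library are not replicates. Taken singly, Gpihbp1 and Lpl were in 148 and 103 of the 197 SAT control cells and in 84 and 71 of the 106 SAT D-CAN cells. In the tumors they were in 55 and 4 of 81 and in 29 and 7 of 52 cells. Whether the overlap exceeds what these separate counts give was not tested.

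In SAT macrophage-like cells, the Lpl level rested on single cells. It was 623 CPM in control, from 231 UMIs, and 22.7 CPM in D-CAN, from 10 UMIs. Of the 231 UMIs, 167 were in 1 cell and 207 (89.6%) in 5 cells, and without these 5 cells the level was 69.6 CPM. Of the 8 listed genes of lipid-associated macrophages, 6 were at a higher level in these 5 cells than in the rest and 2, Spp1 and Cd9, at a lower one. Gpnmb had 53 UMIs in them and Trem2 33, each in 4 of the 5 cells, against 11 and 22 in the other 142 cells, while Spp1 had 0 and Cd9 was at 154 CPM against 197 CPM in the rest. C1qa, C1qb and C1qc were each found in 2 of the 5. The fibroblast markers of the 5 cells were at or near 0, with 1 UMI of Col3a1, 1 of Pi16 and none of Dcn, Lum or Col1a1. Tumor macrophage-like cells had 102 and 129 CPM of Lpl, with 62.6% and 62.4% of it in 5 of 485 and of 298 cells.

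Fabp5, the second carrier, was highest in endothelial cells, followed in the tumors by macrophage-like and perivascular-like cells. SAT capillary endothelial-like cells had 2619 CPM (2503 to 2740) in control and 2327 CPM (2203 to 2455) in D-CAN. Tumor endothelial-like cells had 3734 CPM (3510 to 3968) and 3059 CPM (2861 to 3267), above SAT in both libraries, unlike Fabp4 and Cd36. Tumor macrophage-like cells had 1286 and 1458 CPM. Perivascular-like cells had 1188 and 851 CPM in the tumors and 353 and 247 CPM in SAT. SAT macrophage-like cells had 1569 CPM in control and 202 CPM in D-CAN, and 5 of the 147 control cells held 82.8% of the UMIs. Fibroblast-like cells had 75.7 and 36.3 CPM in SAT and 347 and 331 CPM in the tumors. The SAT fibroblast values do not stand clear of the 47.9 and 56.9 CPM of lymphocyte-like cells. Those cells are no even floor for Fabp5, since their clusters ran from 9.11 CPM (cluster 2) to 186 CPM (cluster 8), both libraries summed. The part of free RNA in the fibroblast values was not tested.

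Apoe was the gene of macrophages in the tumors and was shared with fibroblasts in SAT. Tumor macrophage-like cells had 43967 CPM in control and 35717 CPM in D-CAN, and 99.4% and 98.4% of them had a UMI of it at 1000 UMIs per cell. Tumor endothelial-like cells had 809 and 591 CPM, and tumor fibroblast-like cells 235 and 387 CPM. Cancer-like cells had 117 and 62.1 CPM. In SAT, macrophage-like cells had 9517 CPM (9205 to 9836) in control and 5283 CPM (5071 to 5502) in D-CAN, fibroblast-like cells 4620 and 3290 CPM, and capillary cells 1592 and 2212 CPM. The thinned share of SAT macrophage-like cells with Apoe was 46.3% and 38.3%, below the 68.5% and 77.4% of capillary cells, so the order by share goes against that by level. Apoe was unevenly spread there: 5 cells held 61.3% of the macrophage UMIs in control and 77.6% in D-CAN. In SAT fibroblast-like cells, 5 cells held 67.2% and 56.9% of the UMIs. Without them the fibroblast level was 1692 and 1608 CPM, beside 1518 and 2015 CPM in capillary cells without their 5 richest. Among the SAT macrophage-like cells with a C1q UMI, 49 in control and 18 in D-CAN, the level was 21361 and 15765 CPM.

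Lipa, the lysosomal lipase, was highest in macrophage-like cells among the named classes of every library. Its level there was 342 CPM (285 to 407) in SAT control, 145 CPM (112 to 186) in SAT D-CAN, 389 CPM (349 to 432) in tumor control and 379 CPM (338 to 422) in tumor D-CAN. SAT D-CAN was thus the low library with all cells. In SAT, 5 cells held 58.3% of these UMIs in control and 40.6% in D-CAN. Without the 5 richest cells of each library the levels were 168, 107, 353 and 326 CPM in the same order, so both SAT libraries lay below both tumor libraries. Capillary or tumor endothelial-like cells had 41.2, 44.0, 57.5 and 107 CPM, from 16 to 31 UMIs, and fibroblast-like cells 30.9, 57.1, 90.3 and 36.6 CPM. Endothelial and fibroblast intervals overlapped in 3 libraries and were apart in tumor D-CAN. Lymphocyte-like cells had 22.4 and 29.0 CPM, and capillary cells of SAT were not called against them.

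Abca1 and Abcg1, the exporters, had few UMIs and no common order. Abca1 in SAT ran from 91.5 to 163 CPM over the capillary, macrophage-like and fibroblast-like cells of both libraries, and within a library their intervals overlap. The other endothelial-like cells of SAT (venous and mixed, 176 and 49 cells) had 195 and 211 CPM. In the tumors, macrophage-like cells had 223 and 256 CPM of Abca1, endothelial-like cells 115 and 168 CPM, and fibroblast-like cells 21.4 and 21.6 CPM. Abcg1 was highest in dendritic-like cells of SAT, at 168 CPM (120 to 229) in control and 130 CPM (90.3 to 180) in D-CAN. SAT macrophage-like cells had 135 and 59.0 CPM of Abcg1, capillary cells 38.5 and 37.0 CPM, and lymphocyte-like cells 62.1 and 49.0 CPM. Tumor endothelial-like and macrophage-like cells had 68.3 and 85.9 CPM, and 45.9 and 63.7 CPM, with overlapping intervals.

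Against macrophage-like cells, 3 of the 9 genes were called higher in capillary cells of both SAT libraries (Gpihbp1, Cd36 and Fabp4), where 17.3% of the 5914 genes tested were. In the tumors 4 of 9 were called higher in both libraries, the same 3 and Fabp5, against 12.5% of 5948 genes. Apoe and Lipa were called lower in both libraries of both tissues, 2 of 9 genes each time, against 10.4% of genes in SAT and 10.7% in the tumors. Apoe fell short of the macrophage level by 5.98-fold and 2.39-fold in SAT and by 54.3-fold and 60.4-fold in the tumors. Lipa was 8.30-fold and 3.30-fold lower in SAT and 6.75-fold and 3.55-fold lower in the tumors. Lpl was not called against macrophage-like cells in SAT control (log2 ratio 0.88, interval 0.67 to 1.10), was called higher in SAT D-CAN (5.88, 5.06 to 7.01), and was not called in either tumor library. Without the 5 cells of each class and library richest in the gene, an alternative chosen after the data were seen, Lpl (3.90) and Fabp5 (2.71) were called higher in SAT control too. Lpl was then called lower in tumor control (-1.60), and Apoe in SAT D-CAN turned from -1.26 to 0.52. In the deep capillary cluster alone, also a choice made after the data were seen, Lpl (1.22) and Fabp5 (1.02) were likewise called higher in SAT control, so that 5 of 9 genes were called higher in both libraries.

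Against fibroblast-like cells, Gpihbp1, Cd36, Fabp4 and Fabp5 were called higher in both libraries of both tissues. They are 4 of 9 genes in SAT, where 15.3% of 5809 genes were called higher, and in the tumors Abca1 and Abcg1 joined them, making 6 of 9 against 10.5% of 4817 genes. The Cd36 ratios were 184-fold and 373-fold in SAT and 215-fold and 116-fold in the tumors, that of tumor control on 1 fibroblast UMI (log2 ratio 7.17, 5.25 to 13.06). The Fabp4 ratios were 298-fold, 280-fold, 163-fold and 108-fold. For Fabp5 they were 34.6-fold and 64.0-fold in SAT and 10.8-fold and 9.25-fold in the tumors. None of the 9 was called lower in both SAT libraries, where 10.7% of genes were. Lpl was called lower in both tumor libraries, by 4.06-fold and 2.44-fold, 1 of 9 genes against 11.1%. In SAT the Lpl log2 ratio was 0.14 (-0.04 to 0.32) in control and -0.54 (-0.69 to -0.40) in D-CAN. Without the 5 cells of each class and library richest in Lpl, it was 0.72 (0.50 to 0.95) and 0.14 (-0.05 to 0.33), neither called. Apoe was called lower in SAT control (log2 ratio -1.54) and higher in tumor control (1.78), and it was not called in either D-CAN library. Without cells that hold another type's markers, the Apoe ratio in tumor control turned to -0.31. Without the 5 cells of each class and library richest in Apoe, it was not called in SAT (-0.16 in control, 0.33 in D-CAN). In the tumors it was then called higher in control (1.17) and in D-CAN (2.88).

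Against the other endothelial-like cells of SAT, 3 of 9 genes were called higher in capillary cells of both libraries, Gpihbp1, Lpl and Cd36, while 3.01% of the 5882 genes tested were. Those other cells came from cluster 12, venous and led by Glycam1 (123 control and 8 D-CAN cells), and cluster 14, mixed and led by Plvap (53 and 41 cells). Their mix thus differed between the libraries. Cd36, for instance, was 948 and 151 CPM in cluster 12 and 1907 and 2023 CPM in cluster 14. Lpl showed the widest gap, 10.4-fold in control and 6.03-fold in D-CAN (1148 and 1401 CPM against 111 and 232 CPM). Gpihbp1 was 5.46-fold and 3.59-fold higher, and Cd36 2.55-fold and 2.61-fold. Fabp4 was 1.93-fold and 2.14-fold higher, past the line of 2-fold only in D-CAN, and Fabp5 1.67-fold and 1.69-fold. In the deep cluster alone Fabp4 was called in both libraries (1.22 and 1.19 on the log2 scale). No listed gene was called lower in both libraries, as 4.20% of genes were; Abca1 was called lower in D-CAN alone (log2 ratio -1.20, -1.73 to -0.70).

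**Figure D2:**
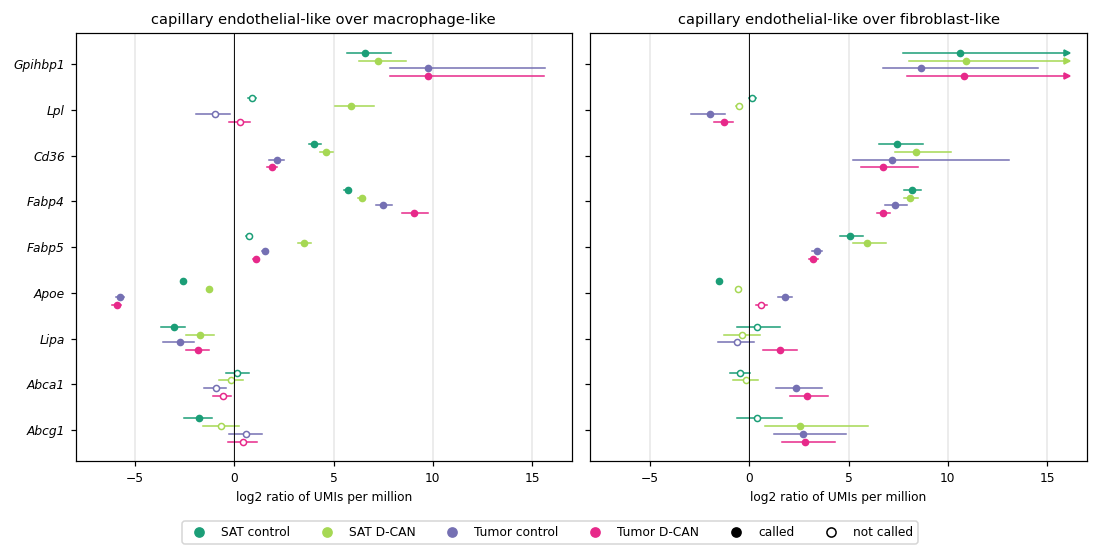
Log2 ratio of each gene's level in capillary endothelial-like over macrophage-like cells (left) and over fibroblast-like cells (right), 1 point per library with its counting interval; filled points are called, arrows mark intervals with no upper end. Gpihbp1, Cd36 and Fabp4 lie to the right of 0 in all 8 comparisons, Apoe and Lipa to the left against macrophages, and Lpl lies left of 0 against fibroblast-like cells in both tumor libraries.

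How much of a library's transcripts a class held also depends on how many cells of it were captured. The share of a class among cells depends on the other classes too, and lymphocyte-like cells were 54.9% of SAT control and 77.0% of SAT D-CAN cells. Capillary cells made up 13.4% of SAT control and 6.38% of SAT D-CAN cells, and held 82.3% and 80.7% of the Gpihbp1, 71.5% and 71.6% of the Cd36 and 65.7% and 67.9% of the Fabp4 UMIs. Tumor endothelial-like cells were 3.66% and 4.51% of cells and held 95% and 91.4% of Gpihbp1, 54.2% and 51.9% of Cd36 and 62.5% and 74.7% of Fabp4. The rest of the tumor Cd36 was mostly in macrophage-like cells (39.7% and 40.7%). Of the Lpl UMIs, capillary cells of SAT held 49.2% and 42.8%, while tumor endothelial-like cells held 3.92% and 6.26% and tumor perivascular-like cells 43.4% and 45.1%. Tumor macrophage-like cells held 89.5% and 92.8% of Apoe and 65.5% and 67.2% of Lipa.

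**Figure D3:**
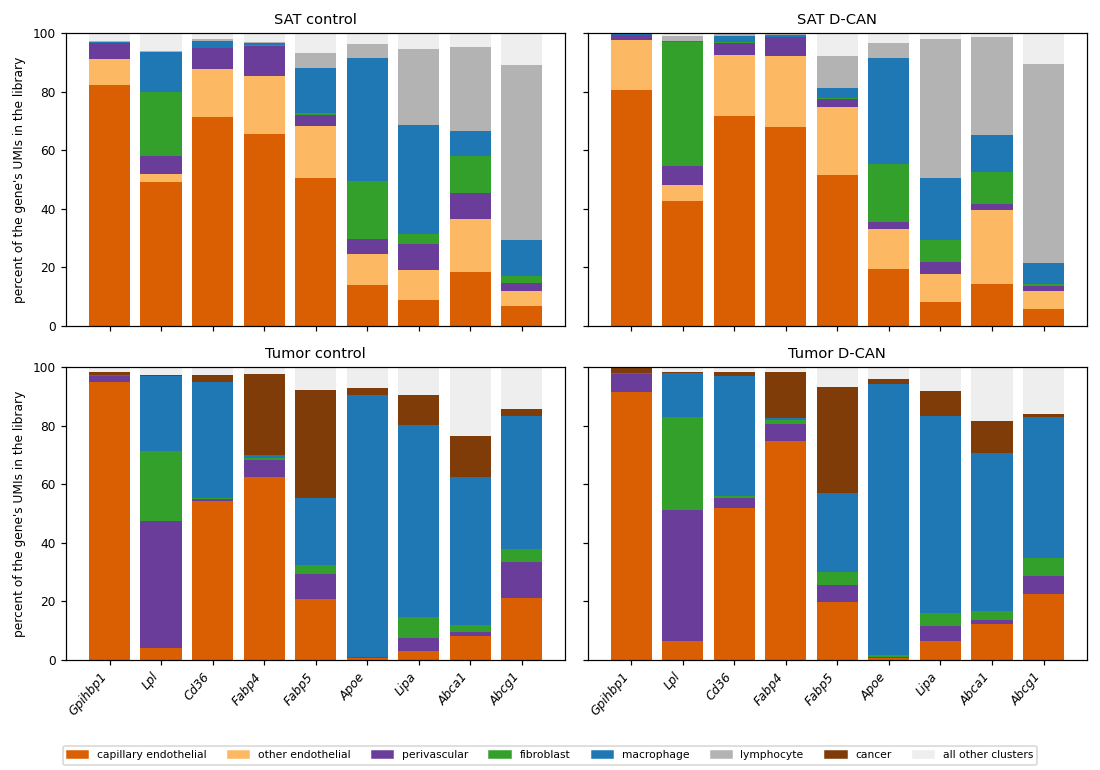
Percent of each gene's UMIs in a library (y axis, stacked to 100) that each class of cells held, 1 panel per library. Gpihbp1 is almost wholly endothelial in all 4 panels, Lpl moves from capillary and fibroblast-like cells in SAT to perivascular-like, fibroblast-like and macrophage-like cells in tumors, and Apoe is nearly all macrophage in the tumors.

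The stromal genes also varied within a class. Of the SAT fibroblast-like clusters, the one led by Apod, Lum and Cxcl14 (cluster 13, 65 and 43 cells) had 1939.5 CPM of Lpl in control and 3332.5 CPM in D-CAN, while the one led by Pi16 and Mfap5 (cluster 15, 21 and 21 cells) had 477 and 385 CPM. The intervals of the 2 clusters are far apart in both libraries. Apoe split the same clusters further, with 10777 and 5616 CPM in the first and 116 and 314 CPM in the second. In the tumors the smaller fibroblast-like cluster (cluster 14, 22 and 13 cells) had more Lpl, 603 and 1429.8 CPM, than the larger one (cluster 12, 99.2 and 218 CPM). Adipocyte products stood beside that, at 2811 CPM in cluster 14, where Cfd and Car3 came from the D-CAN library alone; their part in the Lpl level was not tested. Of the tumor macrophage-like clusters, 3 and 8 had 49549 and 40656 CPM of Apoe in control, and cluster 13 had 18310 CPM. The shallow SAT capillary cluster had lower levels than the deep one in control, with 1242 against 2766 CPM of Gpihbp1, 619 against 1451 CPM of Lpl and 25119 against 47514 CPM of Fabp4. Hemoglobin genes were among its leading genes, but their share of UMIs was close to that in the deep cluster (0.343% and 0.278%, both libraries summed).

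**Figure D4:**
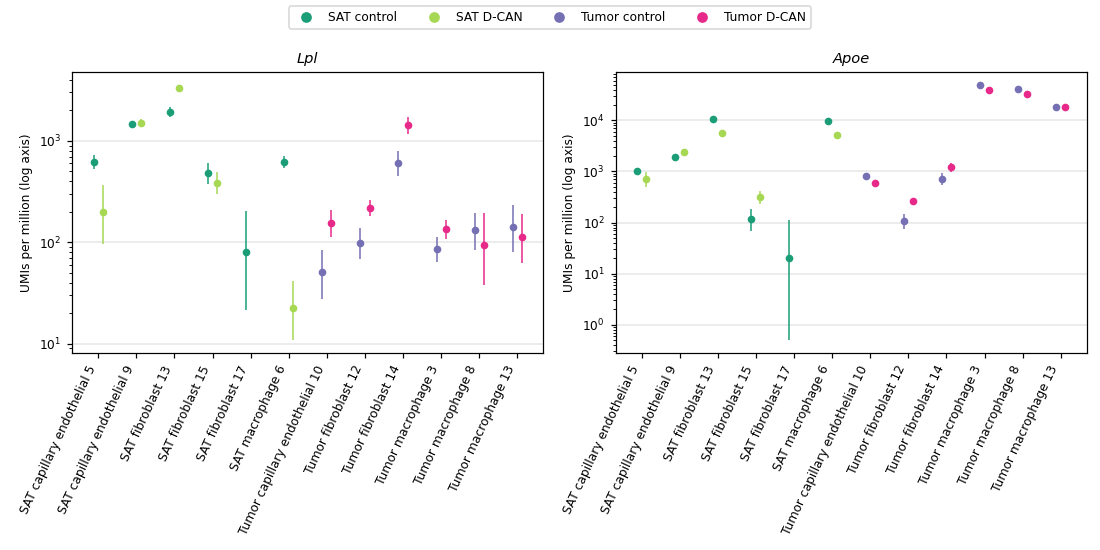
Lpl (left) and Apoe (right) in UMIs per 1000000 on a log axis in each capillary or endothelial, fibroblast-like and macrophage-like cluster, with exact 95% Poisson intervals; colours are libraries, and cluster numbers are those used in the text. SAT fibroblast cluster 13 is above cluster 15 in both genes and both libraries, and the 3 tumor macrophage clusters hold the most Apoe.

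Between the tissues, endothelial cells of the tumors (cluster 10) had less Lpl, Cd36 and Fabp4 than the deep SAT capillary cluster (cluster 9), which had 1451 and 1517 CPM of Lpl, 5033 and 5158 CPM of Cd36 and 47514 and 50456 CPM of Fabp4 (control, then D-CAN). Against both SAT clusters summed, these 3 of 9 genes were called lower under both treatments, against 10.9% of 5428. The log2 ratios of tumor over SAT were -4.46 and -3.16 for Lpl, -3.01 and -2.33 for Cd36 and -1.86 and -1.76 for Fabp4 (control, then D-CAN). The tumor cluster was not split by vessel type, while the SAT side leaves out the venous and mixed clusters 12 and 14. Summed, those SAT cells had 111 and 232 CPM of Lpl and 1619 and 1852 CPM of Cd36. Their Fabp4 was 20356 and 22080 CPM and their Gpihbp1 405 and 706 CPM. The part of this difference in makeup in the ratios was not tested. Gpihbp1 was lower in the tumors than in both SAT capillary clusters summed, by less than the 2-fold line (-0.63 and -0.76). Adipocyte products moved the same way, with both of the 2 tested, Car3 and Cfd, lower in the tumors (median log2 ratio -6.51) and 6 adipocyte markers at 176 and 188 CPM in SAT and 0 and 3.44 CPM in the tumors; their part in these ratios was not tested. In macrophage-like cells, Apoe (2.21 and 2.76) and Abca1 (1.07 and 1.31) were called higher and Fabp4 (-3.65 and -4.39) lower, 3 of 8 genes against 10.3%. The SAT side of the Fabp4 ratios rested on few cells, at 120 and 50.3 CPM without the 5 richest in it. Among macrophage-like cells with a C1q UMI only, Abca1 was 232 and 295 CPM in SAT and 219.7 and 266 CPM in the tumors, with overlapping intervals under each treatment. Apoe in those cells was 21361 and 15765 CPM in SAT and 45477 and 38320 CPM in the tumors. In fibroblast-like cells, Lpl (-2.34 and -2.43), Apoe (-4.29 and -3.08) and Abca1 (-2.86 and -2.23) were called lower and Fabp5 (2.17 and 3.14) higher in tumors, 4 of 6 genes against 13.4%. The tissues differ in library, dissociation and depth, which cannot be told apart from the tissue here.

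Between D-CAN and control, the 2 capillary clusters of SAT are compared by number, since they differed in depth. Over both clusters, the 4 red cell genes summed to 1726 CPM in control and 4493 CPM in D-CAN. Within the deep cluster (cluster 9, 93 and 118 cells) none of the 9 genes was called, with log2 ratios of -0.02 for Gpihbp1, 0.06 for Lpl, 0.04 for Cd36 and 0.09 for Fabp4. Within the shallow cluster (cluster 5, 28 and 262 cells) Lpl (-1.56, -2.72 to -0.71), Fabp5 (-1.53) and Gpihbp1 (-1.08) were called lower in D-CAN, and Cd36 (-0.74) and Fabp4 (-0.93) lay below 0 without a call. The shallow cluster made up a larger share of the control cells. With both clusters summed, no gene was called, where 3.81% of 6828 genes were, and the ratios ran from -0.35 (Abca1, -0.88 to 0.16) to 0.47 (Apoe, 0.36 to 0.59). In tumor endothelial-like cells only Lpl was called, higher in D-CAN (1.58, 0.73 to 2.60, from 14 and 45 UMIs), 1 of 9 genes against 4.88%. Cd36 lay just under the line (0.91, 0.62 to 1.22). Markers of classes with more Lpl were also higher there, the 9 fibroblast markers at 86.3 CPM in control and 873 CPM in D-CAN and the 8 perivascular markers at 608 and 1131 CPM, and their part in the Lpl ratio was not tested.

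In SAT macrophage-like cells, Lpl (-4.71), Fabp5 (-2.95), Lipa (-1.23) and Abcg1 (-1.18) were called lower in D-CAN, 4 of 8 genes against 7.34%. The listed lipid-associated macrophage genes Gpnmb, Trem2, Lgals3 and Cd63 were called lower beside them, 4 of 6 tested. These ratios rest on few cells, as given above for Lpl. The makeup of the class also differed, with the 10 macrophage markers at 18138 CPM in control and 10391 CPM in D-CAN, the 7 B cell markers at 531 and 1092 CPM, and Siglech, of plasmacytoid dendritic cells, at 255 and 451 CPM outside the 5 cells richest in Lpl; its part was not tested. Among the 49 and 18 cells with a C1q UMI, Lpl was 1165 and 59.0 CPM, Fabp5 2801 and 509 CPM and Lipa 652 and 280.1 CPM, with intervals apart, and Abcg1 was 175 and 111 CPM, with overlapping intervals. Of the 186 Lpl UMIs of those control cells, 167 were in 1 cell, and of the 447 Fabp5 UMIs, 281 were in 1 cell. The intervals do not cover this. Without the 5 richest cells of each library, Lipa was no longer called (-0.65, -1.29 to -0.02), while Lpl, Fabp5 and Abcg1 were still called lower. Apoe (-1.62, against -0.85 with all cells) and Fabp4 (-1.24, against -0.44) were then called lower as well. In tumor macrophage-like cells Cd36 was called higher (1.15, 0.81 to 1.51, from 104 and 220 UMIs) and Fabp4 lower (-1.17, from 53 and 22 UMIs), 2 of 8 genes against 2.40%. Apoe there had a ratio of -0.30 (-0.32 to -0.28).

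In fibroblast-like cells of SAT, Fabp5 alone was called, lower in D-CAN from 27 and 14 UMIs (-1.04), 1 of 6 genes against 7.93%. That ratio turned to 0.11 with the highest doublet scores left out, and the count of calls ran from 0 to 5 over the alternatives. Of the 27 control UMIs, 15 were in fibroblast-like cluster 17, which had 30 control and 0 D-CAN cells. Within cluster 13, Fabp5 was at 66.2 CPM in control and 60.1 CPM in D-CAN, and cluster 15 held 2 and 1 UMIs. Over all fibroblast-like cells of SAT, Lpl had a ratio of 0.97 (0.79 to 1.15), just under the line. Cluster 17, on the control side only, had 79.6 CPM of Lpl. In tumor fibroblast-like cells Lipa alone was called, lower (-1.29, from 38 and 22 UMIs), 1 of 6 against 3.07%. Perivascular-like cells of SAT had 2 of 8 genes called lower, Gpihbp1 (-1.60) and Abca1 (-2.00), against 8.83%. The 9 endothelial markers there summed to 3344 CPM in control and 2154 CPM in D-CAN. The 8 capillary markers went the other way, at 3250 and 4551 CPM, and the part of either in the Gpihbp1 ratio was not tested. Perivascular-like cells of the tumors had 3 of 7 called higher, Gpihbp1 (2.08), Lpl (1.30) and Cd36 (3.12), against 4.04%. The first and last were from 8 and 30 and from 2 and 18 UMIs. Without the 5 cells richest in the gene, Lpl lost its call (0.87, 0.50 to 1.26). The Gpihbp1 UMIs were in 1 control and 2 D-CAN cells and the Cd36 UMIs in 1 and 5, so without the richest cells none of either was left. Endothelial markers there summed to 555 CPM in control and 678 CPM in D-CAN, and adipocyte markers to 0 and 128 CPM; their part in these ratios was not tested.

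**Figure D5:**
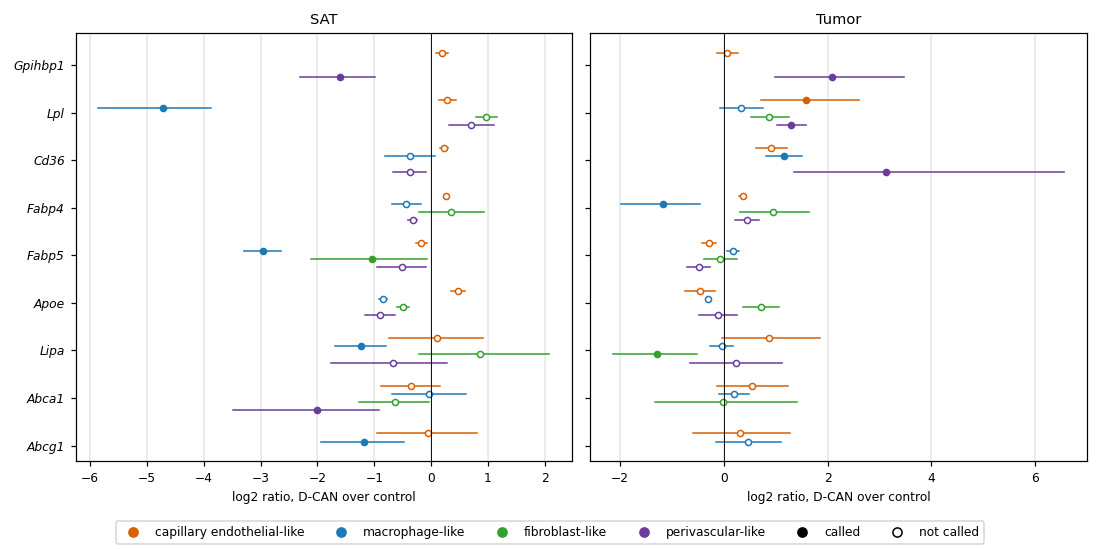
Log2 ratio of D-CAN over control for each gene in 4 classes of cells (colours) of SAT (left) and tumors (right), with counting intervals; filled points are called, and ratios on fewer than 20 UMIs are left out. Capillary cells of SAT, both clusters summed, lie between -0.35 and 0.47, the lowest points are Lpl and Fabp5 in SAT macrophage-like cells, and the highest is Cd36 in tumor perivascular-like cells.

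Other genes of the pathway came from 6 lists, none holding one of the 9 genes. Over all genes tested against macrophage-like cells, 17.3% in SAT and 12.5% in the tumors were called higher in both libraries. The shares called lower were 10.4% and 10.7%. Of the fatty acid carriers and activation genes, 5 of 9 tested were called higher in capillary than in macrophage-like cells of both SAT libraries and none lower, with a list median log2 ratio of 1.24 beside 0.19 over all genes. Among them were Cav1, Cav2 and Cavin1, parts of caveolae, and Aqp7, a glycerol channel (6.44 and 6.04). In the tumors 3 of 9 were called higher (Cav1, 7.05 and 6.97, Cav2 and Cavin1) and 2 lower, the fatty acid transporter Slc27a1 and the acyl-CoA synthetase Acsl1. Of the lysosomal genes, 5 of 10 tested were called lower in SAT and 8 of 13 in the tumors and none higher, with medians of -1.57 and -1.65. Among them were Gm2a, the protease gene Ctsd, the cholesterol carrier Npc2 and Psap, each with log2 ratios from -1.85 to -4.25 over the 4 libraries. Of the receptors, Scarb1, which takes up HDL lipid, was called higher in capillary cells of all 4 libraries (2.23, 3.13, 3.63 and 3.32), and Lrp1 lower (-3.72, -2.81, -3.84 and -4.55).

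Of the lipoprotein lipase partners and apolipoproteins, Angptl4, an inhibitor of the lipase, was called higher than in macrophage-like cells in all 4 libraries (4.30, 6.12, 4.60 and 4.26). Lipe, the hormone-sensitive lipase, was called higher in SAT, and Pltp lower in the tumors, among 4 and 3 genes tested. Of the cholesterol export and storage genes, Soat1, which esterifies cholesterol, Nceh1 and Arl4c were called lower in both tissues. The list gave 3 of 7 genes tested in SAT and 5 of 8 in the tumors, against 10.4% and 10.7% of all genes. Of the regulators, Meox2 was called higher in all 4 libraries (7.59, 6.11, 7.46 and 8.11), and Tcf15 (5.46 and 6.69) and Pparg (3.61 and 4.69) in SAT. Meox2 and Tcf15 are transcription factors known to turn on fatty acid uptake in capillary endothelium. The 8 lipid-associated macrophage genes gave 3 of 4 tested called lower in SAT and 7 of 8 in the tumors, against the same 10.4% and 10.7%. Against fibroblast-like cells, 5 of 8 carrier genes tested were called higher in SAT and 3 of 7 in the tumors, where 15.3% and 10.5% of all genes were, with medians of 2.45 and 0.76 beside 0.26 and 0.14 over all genes. Of the lysosomal genes 3 of 9 and 2 of 7 were called lower, against 10.7% and 11.1%, with medians of -0.72 and -0.81. The apolipoprotein gene Apod was called lower in all 4 libraries (log2 ratio -10.09 and -9.66 in SAT, -6.67 and -4.87 in the tumors). Adipocyte products, a sign of free adipocyte RNA, were higher in SAT capillary cells (544 and 919 CPM over the 8 genes, mostly Car3) than in macrophage-like (26.9 and 34.0 CPM) and lymphocyte-like cells (2.80 and 1.82 CPM). Adipoq was at 13.7 and 12.3 CPM and Plin1 at 2.75 and 1.76 CPM in those cells, and the part of adipocyte RNA in their Lpl, Cd36 and Fabp4 was not tested.

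The genes whose levels followed each listed gene most closely over the 36 classes of 20 cells or more were also looked for, among 11885 genes. The measure is Pearson's r on log2 of CPM plus 10, given as a description, since classes of 1 library share its depth and free RNA. Gpihbp1 ran with Cdh5 (0.98), Myct1 (0.98) and Afap1l1 (0.96), all endothelial. Fabp4 ran with Ptprb (0.96), and Cd36 with Gpr146 (0.94). Apoe ran with Hfe (0.92), Psap (0.91) and Dab2 (0.90), and Lipa with Sdcbp (0.92). Lpl ran most closely with Pros1 (0.90), and with the other listed genes its r was at most 0.62, that with Lipa.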

How the data were processed

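Cells of 2 tissues and 2 treatments were captured on the 10x 3′ platform, after removal of dead and red blood cells, as 1 library each. The authors aligned the reads to mm10 with Cell Ranger (3.1.0 in the submitters' processing notes, with STAR 2.6; the header of 1 matrix names 3.0.2) and deposited filtered UMI counts per gene and cell, whose unit is raw counts. From these, cells with 200 genes or more were clustered per tissue in Seurat 5.3.0 (2000 variable genes, 10 principal components, resolution 0.8), and 127 listed genes were left out of the variable genes. A cluster was named where 3 or more markers of 1 class were in at least 10% of its cells and at 25% or more of the highest cluster; these limits were set after the clusters were seen. Scrublet (scanpy 1.11.5) called 16 cells doublets, too few to have worked, so none was removed, and the 178 cells of highest score were left out in an alternative only.

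UMIs were summed per class and library (Python 3.11.15, scipy 1.17.1). Ratios have 0.5 UMI added to each side and exact conditional 95% intervals; shares have exact Clopper-Pearson intervals after thinning to 1000 UMIs per cell, shallower cells left out. A class comparison is called where both libraries of a tissue are. Ratios were tested on simulated data. With 1 library per group no p-value can be given, and intervals cover counting error only. The 9 genes and the lists were chosen with earlier results of these data known. At most 4 genes of a list are named, those with the largest ratios of the same sign, and the 3 most alike genes were looked for among those with 100 UMIs or more.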

Additional observations from a re-analysis of the deposited data

Results flagged for a closer look

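Lpl was called higher in capillary endothelial-like than in perivascular-like cells of SAT and lower in the tumors, so that both libraries of one tissue went one way and both of the other the opposite way. The log2 ratio was 2.10 (1.81 to 2.42) in SAT control and 1.68 (1.41 to 1.98) in SAT D-CAN, against -3.05 (-4.00 to -2.31) in tumor control and -2.76 (-3.26 to -2.32) in tumor D-CAN. The difference between the tissues was not tested, since each group is 1 library. Endothelial markers in SAT perivascular-like cells summed to 43.7% and 23.3% of their level in capillary cells, and in tumor perivascular-like cells to 8.60% and 9.88%. Fibroblast markers summed to 443 and 870 CPM in the SAT perivascular-like cells and to 10809 and 12082 CPM in those of the tumors, above their own perivascular markers (5775 and 6108 CPM). The part of either in the ratios was not tested.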

How the results depend on the processing

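Over all comparisons and alternatives, 190 counts of calls stayed within 1.5 times the value reported and 37 did not. Of the values for single genes, 1436 stayed inside the interval of the value reported, 281 left it, and 3 called values changed sign. No analysis paired by replicate was possible between groups, because each group is 1 library and the labels give no replicate numbers. Leaving out a replicate was not possible for the same reason. The comparisons of classes were already made within each library. The counts of the 9 genes called between D-CAN and control moved most. In SAT fibroblast-like cells the count of 1 became 5 with cells of 500 genes or more, 4 with 20 principal components, at resolution 0.4 or with the listed genes kept in the clustering, 2 with median ratio scaling and 0 with 50 UMIs behind a ratio. In SAT perivascular-like cells the 2 became 0 with 20 components and 1 with 500 genes, at resolution 1.2 or with 50 UMIs. In tumor fibroblast-like cells the 1 became 3 with 500 genes, 20 components or either resolution, and 2 with the highest doublet scores left out. In tumor perivascular-like cells the 3 became 1 under these 5 settings and with 50 UMIs. With at most 20% mitochondrial UMIs the count became 2 in tumor endothelial-like and 1 in tumor macrophage-like cells. Against macrophage-like cells of SAT, 5 genes in place of 3 were called higher at resolution 1.2, and 1 in place of 2 lower without cells that hold another type's markers. Without those cells, 0 genes in place of 1 were lower than in tumor fibroblast-like cells. With 50 UMIs behind a ratio, 6 pathway genes in place of 11 were lower in SAT and 3 in place of 6 higher in the tumors. The Fabp5 ratio of D-CAN in SAT fibroblast-like cells turned to 0.11 without the highest doublet scores, and the Apoe ratio of endothelial-like over fibroblast-like cells in tumor control to -0.31 without cells of another type's markers.

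Of the 4 alternatives chosen after seeing the data, leaving out the shallow capillary cluster gave 5 genes higher than in macrophage-like cells of SAT, and counting the unnamed cluster with 4 fibroblast markers as fibroblast-like gave 4 genes called with D-CAN in SAT fibroblast-like cells. Without the 5 cells richest in each gene, 5 genes were higher and 1 lower than in macrophage-like cells of SAT, and Apoe turned to 0.52 in SAT D-CAN. With D-CAN, the count then became 0 in SAT fibroblast-like, 5 in SAT perivascular-like, 2 in tumor endothelial-like, 2 in tumor fibroblast-like and 1 in tumor perivascular-like cells. That 1 was Apoe, called lower (-1.97) and not among the genes called there with all cells. In tumor fibroblast-like cells Apoe was likewise called lower (-1.46), beside Lipa (-1.40). Taking out 5 cells weighs more in small classes, such as the 46 perivascular-like cells of SAT D-CAN against 170 in control. The causes of these shifts were not tested.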
